A study of Mus musculus with 8 samples.

Results

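The genes described are the Wnt ligands, their receptors and co-receptors, the secreted inhibitors and R-spondins that tune them, the core genes of planar polarity and the feedback target Axin2. They were chosen by a rule on symbols, with earlier results of these data known. It takes all protein-coding genes named Wnt, Fzd, Sfrp, Dkk (the numbered family genes), Celsr, Vangl and Rspo. Frzb, Lrp5, Lrp6, Ror1, Ror2 and Axin2 are added by name. The rule found 52 genes among the 55414 Ensembl identifiers of the table. Of these 52 genes, 36 had enough counts to be tested between groups and 16 did not.

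RNA of whole mammary tumors was sequenced, from tumors that grew in female wild-type C57BL/6 mice, 6 to 8 weeks old, after orthotopic implantation of the PyMt cell line. This line came from a tumor of an MMTV-PyMt mouse, in which a mammary tumor virus promoter drives the polyoma middle T oncogene. Calcipotriol, a vitamin D analog, was given topically at 20 nmol every 2 days from day 2 after implantation, with EtOH, its solvent, for the other group. The 4 tumors of each group were harvested 24 hours past the final dose. Values are given in the order of replicates 1, 2, 3 and 4 for EtOH, then 1, 5, 6 and 7 for calcipotriol. Totals were 20908409, 21912723, 25084715 and 23166539 counts under EtOH, then 24673432, 22272072, 19685397 and 22383679 counts under calcipotriol. All tumors came from 1 cell line in 1 strain, and the RNA is that of the whole tumor, with host stroma and blood.

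Wnt proteins are lipid-modified secreted ligands that bind Frizzled receptors. With the co-receptors Lrp5 or Lrp6 they stabilize β-catenin, which acts with TCF/LEF factors on target genes, and with Ror receptors or the Celsr and Vangl proteins they orient cells and their movement without β-catenin. In the mammary gland these signals act in ductal branching and in the maintenance of basal progenitors, and Wnt genes were first found as sites of mammary tumor virus insertion.

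The labels call the cells epithelial, and epithelial markers were uneven. Krt8, a keratin of simple epithelia, was at 649, 652, 523 and 548 CPM (counts scaled to the normalized library size) with EtOH and at 516, 285, 381 and 292 CPM with calcipotriol. Epcam, an epithelial adhesion molecule, was at 0, 0, 4.29 and 2.87 CPM with EtOH and at 1.51, 1.19, 19.1 and 22.7 CPM with calcipotriol. The tight junction gene Cldn7 did not pass 0.481 CPM in any tumor. Krt8 was thus abundant in all 8 tumors while Epcam was at 0 in EtOH replicates 1 and 2, and the samples are called tumors here and not epithelial cells.

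Some libraries stood apart in their marker genes. Calcipotriol replicate 1 had higher lymphocyte and macrophage marker sums than the others of its group, and its macrophage sum was below that of every EtOH-treated tumor. The summed level of 6 B cell markers was 39.7 CPM in it and 2.6, 6.01 and 5.64 CPM in the other calcipotriol-treated tumors, and it was 3.36 to 7.41 CPM with EtOH. Ighm was the most abundant gene of that list. The 10 T and NK cell markers summed to 16.0 CPM in replicate 1, while replicates 5 to 7 had 2.63 to 4.34 CPM, with Nkg7 the most abundant. The EtOH-treated tumors fell into pairs. Endothelial markers summed to 400 and 422 CPM in EtOH replicates 1 and 2 and to 193 and 203 CPM in replicates 3 and 4, whereas skeletal muscle markers, led by Acta1, summed to 5.4 and 3.99 CPM in the first pair and to 42.7 and 46.6 CPM in the second. Lymphatic endothelial markers summed to 23.7 and 23.6 CPM against 95.4 and 85.1 CPM. Pdpn, which leads that list, is also in the fibroblast list, and Flt4 of the same list was at 6.91 and 7.69 CPM against 2.43 and 5.16 CPM. Among fibroblast markers, Col1a1 was at 303 and 271 CPM against 1160 and 1040 CPM, while Col3a1 was at 4160 and 3820 CPM against 2840 and 2580 CPM. Most other marker sums split into these pairs too. Macrophage, adipocyte, B cell, basal, hair follicle and proliferation sums were higher in the second pair. Luminal, mural, neutrophil, T and NK cell, Schwann cell and erythroid sums were lower there.

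The question was which genes of Wnt signaling and planar polarity differed in tumor RNA after topical calcipotriol. In calcipotriol-treated tumors, 2 of the 36 tested genes were higher and 0 were lower (2.02% of all genes were called in either direction), past a Benjamini-Hochberg adjusted p of 0.05 and an absolute log2 fold change of 1 in edgeR's quasi-likelihood test over 14458 genes. The higher genes were Axin2, a feedback inhibitor and target of β-catenin signaling, and Celsr1, a cadherin of planar polarity. Celsr1 passed the filter on low counts only through its calcipotriol values. Of all genes tested, 1.07% were higher and 0.948% were lower by the same rule. DESeq2, which called 4.45% of all genes, gave 3 higher and 0 lower, and limma-voom, which called 1.9%, gave 2 higher and 0 lower. At an unadjusted p under 0.05 there were 6 of the 36 genes, 5 higher and 1 lower, where 18.4% of all genes reached it. The median log2 fold change was 0.36 over the 36 genes and 0.02 over all genes tested, with 27 genes above 0 and 9 below. The median was 0.22 over those with at least 10 counts in every tumor, and 0.15 without calcipotriol replicate 1. In 4 of the 36 genes the lowest calcipotriol value exceeded the highest EtOH value, namely Axin2, Celsr1, Sfrp1 and Fzd8, and in 0 genes the reverse held, against 6.32% and 6.16% of all genes tested.

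Calls depended on single tumors, both here and over all genes. Without calcipotriol replicate 6 or without replicate 7, 0 of the genes passed in edgeR, in fits that called 0.744% and 0.786% of all genes. The log2 fold changes in those fits were 1.14 and 1.17 for Axin2 and 3.79 and 3.63 for Celsr1. Without EtOH replicate 1 or calcipotriol replicate 5, Axin2 alone passed, in fits that called 0.922% and 0.833% of all genes. Axin2 and Celsr1 passed without EtOH replicate 2 or 4 (0.785% and 1.57% of all genes), and Axin2 and Sfrp1 without EtOH replicate 3 (1.18%). Without calcipotriol replicate 1, Axin2, Celsr1 and Sfrp1 were higher and Wnt5b was lower, in a fit that called 4.33% of all genes, 1.62% higher and 2.7% lower.

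Markers of other cell types differed between the groups as well, and 0.948% of all genes tested were lower. Of 10 endothelial markers tested, 5 were lower with calcipotriol (Pecam1, Kdr, Tie1, Vwf and Esam), and their sum was 147, 78.6, 111 and 117 CPM, with Cdh5 the most abundant gene. Of 10 macrophage markers, 3 were lower (Adgre1, Csf1r and Lyz2), with a sum of 3510, 3760, 4470 and 4550 CPM with EtOH and 2570, 1740, 1520 and 1340 CPM with calcipotriol, led by Lyz2. Of 7 erythroid genes, 5 were lower, with a sum of 3460 to 5840 CPM with EtOH and 435 to 821 CPM with calcipotriol, led by Hbb-bs. Of 8 mural cell markers, Rgs5 and Mcam were lower, with sums of 924, 808, 437 and 425 CPM and then 521, 339, 475 and 497 CPM, led by Pdgfrb. The endothelial, macrophage and erythroid sums did not overlap between the groups. None of the markers in these lists was at 0 in all tumors. From the RNA of whole tumors alone, fewer cells of a type and less RNA per cell cannot be told apart. The part of cell composition in the values of the Wnt genes was not tested.

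Among epithelial markers, Cldn3 was higher in a list of 10 tested luminal markers. Of all genes tested, 1.07% were called higher and 0.948% lower in edgeR. The share in either direction was 2.02%. The luminal list summed to 1250, 1320, 1020 and 1090 CPM with EtOH and to 902, 607, 712 and 634 CPM with calcipotriol, and Krt18 was its most abundant gene. The sum follows Krt8 and Krt18, the 2 genes of the list with a log2 fold change below 0, while the other 8 were above 0 and the median was 1.16. Of 8 basal and myoepithelial markers, Krt14 and Trp63 were higher and Mylk was lower, with sums of 61.7 to 92.3 CPM and 50.2 to 96.6 CPM, led by Acta2. In limma-voom 0 genes of this list were called higher and 1 lower. Of 6 adipocyte markers, Fabp4 was lower, with sums of 28.6 to 60.5 CPM with EtOH and 15.4 to 34.5 CPM with calcipotriol, led by Cfd. The other 10 lists cover fibroblasts, lymphatic endothelium, neutrophils, T and NK cells, B cells, skeletal muscle, Schwann cells, skin, hair follicle and proliferation. In them 0 of 48 entries tested with edgeR passed, with Pdpn entered in both the fibroblast and the lymphatic list. In those lists 10 genes had an unadjusted p under 0.05, where 18.4% of all genes did, and DESeq2 called 3, where it called 4.45% of all genes, and limma-voom 0. Fibroblast markers, led by Col3a1, summed to 5450, 5230, 5430 and 4950 CPM with EtOH and to 3780, 3670, 5790 and 6490 CPM with calcipotriol, and the groups overlapped.

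Among the ligands, 4 of 19 genes made up most of the transcripts. Per length, in TPM (counts scaled by exon length and library), Wnt7b, Wnt10a, Wnt5a and Wnt9a together held 92.7%, 95.8%, 96.5% and 92.7% of the ligand total with EtOH and 87.6%, 96.2%, 91.8% and 92.4% with calcipotriol. The ligand total was 205 ± 43.1 TPM (SD, n = 4) with EtOH and 215 ± 43.8 TPM (SD, n = 4) with calcipotriol. These totals differed by less than the spread between tumors of a group.

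Wnt7b, a ligand that can act through β-catenin, had the highest level per length of the ligands, at 103 ± 30.5 TPM (SD, n = 4) with EtOH and 93.7 ± 11.4 TPM (SD, n = 4) with calcipotriol. Its normalized expression was 155, 123, 245 and 228 CPM with EtOH and 179, 152, 156 and 146 CPM with calcipotriol. The EtOH-treated tumors followed the pairs seen in most marker sums, and the calcipotriol-treated tumors lay within the EtOH range. Its log2 fold change was -0.25 (standard error 0.21, Benjamini-Hochberg p of 0.568 in edgeR's quasi-likelihood test). An antisense gene, AU022754, overlaps Wnt7b and took 287 counts over the 8 tumors. Strand use in counting is not given in the sources used here, so reads of overlapping genes cannot be told apart.

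Wnt5a, the best known ligand of the arm without β-catenin, was at 97.9, 107, 150 and 137 CPM with EtOH and at 65.0, 90.9, 110 and 128 CPM with calcipotriol. The groups overlapped, and replicate 1 was the lowest of the calcipotriol-treated tumors. Per length, Wnt5a and Wnt10a were next to each other in order, at 42.4 and 33.9 TPM with EtOH and at 36.6 and 56.5 TPM with calcipotriol.

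Wnt10a, a ligand of ectodermal appendages such as teeth and hair, was at 28.1, 26.4, 35.1 and 34.3 CPM with EtOH and at 21.0, 32.8, 64.3 and 72.2 CPM with calcipotriol. Calcipotriol replicates 6 and 7 were above all EtOH-treated tumors and replicates 1 and 5 were not. Wnt10a had a log2 fold change of 0.62 (standard error 0.33, Benjamini-Hochberg p of 0.358 in edgeR's quasi-likelihood test), and of 0.86 without calcipotriol replicate 1. In the same tumors Wnt6 was at 92, 63, 181 and 189 counts, against 56, 11, 17 and 144 counts with EtOH. Epithelial markers did not share 1 order over the calcipotriol-treated tumors. Epcam (above) and the basal keratin Krt14 were highest in replicates 6 and 7, whereas Krt18, at 348, 297, 260 and 268 CPM, and Krt8, Cdh1 and Cldn3 were highest in replicate 1. The part of epithelial content in Wnt10a and Wnt6 was not tested.

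Wnt9a, a ligand known from joint development, was the 1 ligand with an unadjusted p under 0.05. It had 20.6, 15.7, 13.2 and 18.4 CPM with EtOH and 15.9, 10, 8.94 and 11.8 CPM with calcipotriol. Calcipotriol replicate 1 lay within the EtOH range and the other 3 lay below it. This gave a log2 fold change of -0.54 (standard error 0.23, Benjamini-Hochberg p of 0.236 in edgeR's quasi-likelihood test), and -0.73 without calcipotriol replicate 1. The same 3 tumors were low in Wnt5b, a close paralog of Wnt5a.

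Wnt5b and Wnt4 are given tumor by tumor because calcipotriol replicate 1 was far from the rest. Like Wnt5a, Wnt6, Fzd7, Ror2, Dkk2, Sfrp4, Sfrp5, Celsr2 and Wnt7a, they were chosen after their values were seen. Wnt5b had 113, 69, 63 and 69 counts under EtOH, then 144, 10, 5 and 19 counts under calcipotriol. Replicate 1 was the highest of all 8 tumors and the other 3 calcipotriol-treated tumors were the lowest. All tumors together gave a log2 fold change of -0.99 (standard error 0.85, Benjamini-Hochberg p of 0.581 in edgeR's quasi-likelihood test). Without calcipotriol replicate 1 it was -2.83 (Benjamini-Hochberg p of 0.0214 in edgeR's quasi-likelihood test), and across the fits that left out each of the tumors in turn the adjusted p ranged from 0.0214 to 0.797. Wnt4, a ligand of progesterone-responsive luminal cells, had 18, 29, 31 and 31 counts under EtOH, then 257, 19, 39 and 38 counts under calcipotriol. Only replicate 1 was far above the EtOH range. A log2 fold change of 1.57 (standard error 0.73, Benjamini-Hochberg p of 0.285 in edgeR's quasi-likelihood test) became 0.24 without it. Lymphocyte marker sums were the highest of all 8 tumors in the same tumor, and their part in these values was not tested.

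With all tumors no ligand passed both thresholds in edgeR, DESeq2 or limma-voom, and 1 had an unadjusted p under 0.05. Of all genes tested, 18.4% had such a p. DESeq2 gave no adjusted p for Wnt5b. Of 10 ligands tested, 6 had a log2 fold change above 0 and 4 below, with a median of 0.35. Wnt2, Wnt10b and Wnt11, a ligand of convergent extension, reached 62, 21 and 158 counts in their highest tumor, and their groups overlapped. The log2 fold change of Wnt11 was 0.22 and turned to -0.32 without calcipotriol replicate 1. The 9 ligands without enough counts were Wnt1, Wnt2b, Wnt3, Wnt3a, Wnt7a, Wnt8a, Wnt8b, Wnt9b and Wnt16. Of these, 5 had 0 counts in every tumor, among them Wnt3 and Wnt3a, and Wnt1 had 1 count in 1 tumor. A count of 0 allows up to 3 counts, which is 0.119 to 0.146 CPM at the depth of these libraries, for counting error alone. Wnt7a was at 0 under EtOH throughout and had 0, 6, 1 and 2 counts with calcipotriol.

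**Figure D1:**
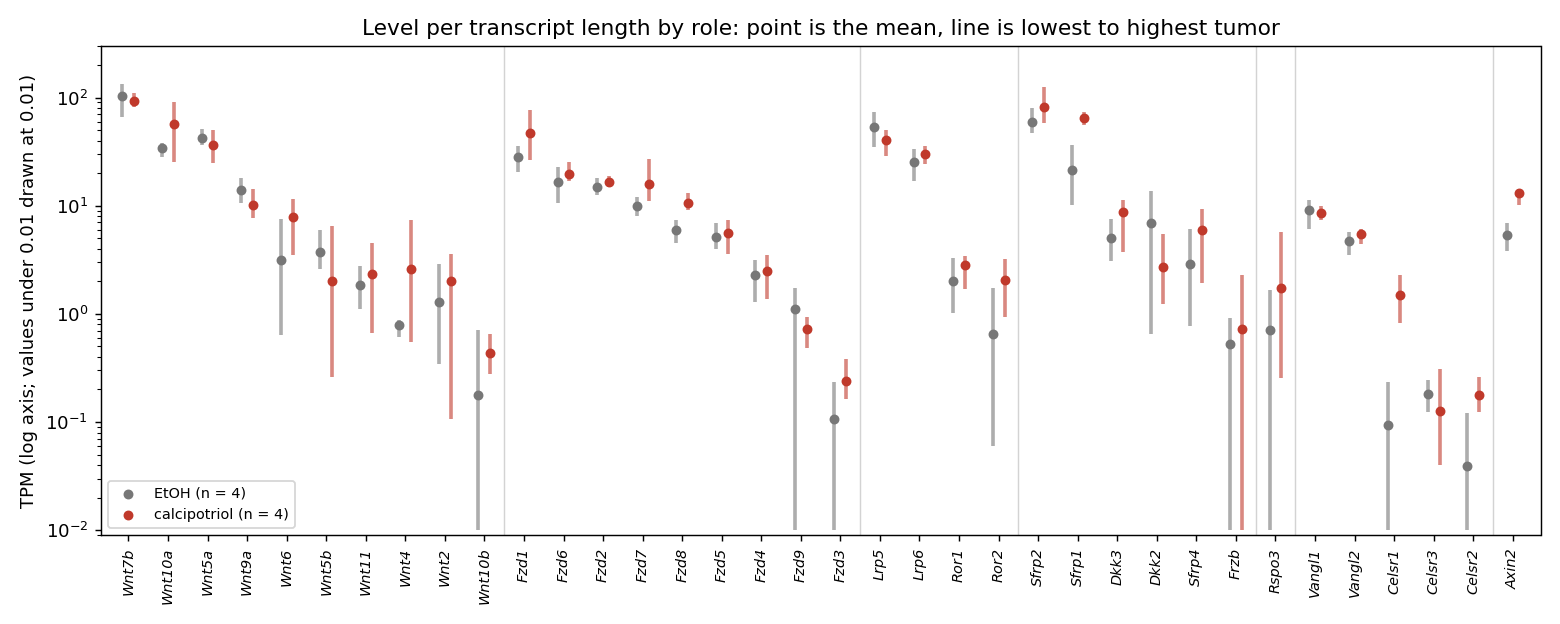
Level of the 36 tested genes in TPM on a log axis, by role from ligands to the feedback target. Points are group means of 4 tumors, lines run from the lowest to the highest tumor, and values under 0.01 TPM are drawn at 0.01. Wnt7b was at 103 TPM with EtOH, while Celsr1 was at 0.0941 TPM with EtOH and 1.49 TPM with calcipotriol.

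The Frizzled receptors, which bind Wnt through a cysteine-rich domain, were all detected, and 9 of 10 were tested. None passed both thresholds in edgeR, DESeq2 or limma-voom, and 2 had an unadjusted p under 0.05, where 18.4% of all genes did. Fzd1 had the highest level per length, at 28.4 ± 7.35 TPM (SD, n = 4) with EtOH and 47.1 ± 21.5 TPM (SD, n = 4) with calcipotriol, followed by Fzd6 at 16.7 and 19.8 TPM. Fzd8, on the forward strand of chromosome 18 (9212163 to 9218136, GRCm38), was at 15.1, 10.3, 15.2 and 12.3 CPM with EtOH and at 18.3, 22.1, 26.9 and 21.0 CPM with calcipotriol. All calcipotriol-treated tumors were above all EtOH-treated tumors. Fzd8 had a log2 fold change of 0.74 (standard error 0.19, Benjamini-Hochberg p of 0.0682 in edgeR's quasi-likelihood test), under the fold change minimum. That adjusted p ranged from 0.012 to 0.215 over the alternatives.

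Fzd1 was at 52.0, 52.5, 37.9 and 32.7 CPM with EtOH and at 108, 41.9, 57.3 and 62.1 CPM with calcipotriol. Replicate 1 was the highest, and replicate 5 lay within the EtOH range. The log2 fold change of 0.62 (standard error 0.27, Benjamini-Hochberg p of 0.26 in edgeR's quasi-likelihood test) was 0.30 without replicate 1. Fzd7 showed the same tumor at its highest, with 290, 284, 437 and 475 counts under EtOH, then 1038, 543, 371 and 382 counts under calcipotriol. Fzd6, a Frizzled with a role in hair follicle orientation, was at 37.9, 34.8, 25.8 and 19.8 CPM with EtOH and at 26.9, 33.3, 31.1 and 39.9 CPM with calcipotriol, and the groups overlapped. Fzd2, Fzd4 and Fzd5 each had a log2 fold change of 0.02, which changed sign in 3 or 4 of the fits that left out a tumor. Fzd9 was at -0.71 in edgeR and at 0.24 in limma-voom. Fzd10 had 28 counts in EtOH replicate 3 and at most 5 counts in any other tumor, too few for the test.

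Of the co-receptors, all 4 were tested and none passed in edgeR, DESeq2 or limma-voom, nor did any have an unadjusted p under 0.05. Among all genes 18.4% had such a p. Lrp5 had the highest level per length, at 52.9 ± 19.6 TPM (SD, n = 4) with EtOH and 40.2 ± 10.9 TPM (SD, n = 4) with calcipotriol. It was at 248, 240, 136 and 131 CPM with EtOH and at 161, 106, 111 and 157 CPM with calcipotriol. The EtOH-treated tumors again split into pairs, and the second pair lay inside the calcipotriol range. Its log2 fold change was -0.50 (standard error 0.24, Benjamini-Hochberg p of 0.312 in edgeR's quasi-likelihood test). Lrp6, the other co-receptor of the β-catenin arm, was at 156, 158, 106 and 90 CPM with EtOH and at 142, 125, 141 and 159 CPM with calcipotriol. EtOH replicates 3 and 4 were below all calcipotriol-treated tumors, and replicates 1 and 2 were within their range. The part of endothelial content, which like several other marker sums was higher in the first pair, was not tested. Ror2, a receptor tyrosine kinase for Wnt5a, had 14, 2, 67 and 13 counts under EtOH, then 115, 33, 61 and 65 counts under calcipotriol, and the groups overlapped through EtOH replicate 3. Ror1 had 51 to 147 counts with EtOH and 81 to 151 counts with calcipotriol.

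Among the secreted inhibitors, Sfrp1 and Sfrp2, which bind Wnt proteins outside the cell, had the highest levels per length. Sfrp1 was at 19.4, 16.9, 58.7 and 44.9 CPM with EtOH and at 89.4, 122, 85.2 and 93.9 CPM with calcipotriol. All calcipotriol-treated tumors were above all EtOH-treated tumors. The EtOH-treated tumors fell into the same pairs as most marker sums, with replicates 3 and 4 high. Its level was 21.5 ± 12.1 TPM (SD, n = 4) with EtOH and 64.4 ± 7.52 TPM (SD, n = 4) with calcipotriol. This gave a log2 fold change of 1.48 (standard error 0.36, Benjamini-Hochberg p of 0.0591 in edgeR's quasi-likelihood test), so Sfrp1 did not pass. The adjusted p was 0.000769 from DESeq2 and 0.0303 from limma-voom, with a range of 0.000769 to 0.148 over all alternatives, and Sfrp1 passed in edgeR without a filter on low counts (0.00915), with at least 10 counts in every tumor (0.0475), without EtOH replicate 3 (0.0332) and without calcipotriol replicate 1 (0.0485). Sfrp1 (ENSMUSG00000031548) is a forward-strand gene of chromosome 8 (GRCm38 23411502 to 23449632).

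Sfrp2 was at 37.2, 38.5, 64.1 and 47.9 CPM with EtOH and at 90.4, 53.1, 43.8 and 54.4 CPM with calcipotriol. The groups overlapped, and replicate 1 was the highest. The log2 fold change was 0.37 (standard error 0.24, Benjamini-Hochberg p of 0.468 in edgeR's quasi-likelihood test), and 0.10 without replicate 1. Dkk2, which binds Lrp5 and Lrp6, had 48, 19, 471 and 363 counts under EtOH, then 172, 38, 57 and 56 counts under calcipotriol. EtOH replicates 3 and 4 were the highest of all tumors and EtOH replicate 2 the lowest, and the log2 fold change of -1.48 had a standard error of 0.82. It was -2.07 without calcipotriol replicate 1. Sfrp4 showed the EtOH pairs too, with 23, 30, 147 and 224 counts, and had 170, 66, 238 and 299 counts with calcipotriol. Muscle, lymphatic and several other marker sums were higher in the same EtOH-treated tumors. The fibroblast sum did not split into these pairs, since Col1a1, Col1a2, Lum and Dpt were higher in EtOH replicates 3 and 4 while Col3a1, Dcn and Pdgfra were lower. The part of these cell types in Sfrp1, Dkk2 and Sfrp4 was not tested. Dkk3 and Frzb, also called Sfrp3, had log2 fold changes of 0.65 and 0.33, and that of Frzb turned to -1.49 without calcipotriol replicate 1, to -0.09 without EtOH replicate 4 and to -0.29 in limma-voom. Dkk1 and Dkk4 had 0 counts in every tumor, and Sfrp5 was at 0 under EtOH throughout and had 13, 0, 0 and 4 counts with calcipotriol. In edgeR 0 of the 6 tested inhibitors passed, with 1 at an unadjusted p under 0.05, and DESeq2 and limma-voom each called 1, Sfrp1. Among all genes, edgeR called 2.02%, DESeq2 4.45% and limma-voom 1.9%, and 18.4% had an unadjusted p under 0.05 in edgeR.

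R-spondins bind Lgr receptors and keep Frizzled proteins at the cell surface by holding off the ligases Znrf3 and Rnf43. Rspo1, Rspo2 and Rspo4 did not pass 12 counts in any tumor, and only Rspo3 was tested. It had 36, 14, 18 and 0 counts under EtOH, then 147, 17, 7 and 6 counts under calcipotriol. Replicate 1 was the highest of all tumors, and the other calcipotriol-treated tumors lay within the EtOH range. Its log2 fold change was 1.19 (standard error 1.22, Benjamini-Hochberg p of 0.658 in edgeR's quasi-likelihood test), and it turned to -0.78 without replicate 1. Rspo1 had 1, 0, 0 and 0 counts under EtOH, then 0, 0, 5 and 12 counts under calcipotriol. Rspo2 had 0 counts in every tumor.

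Of the 5 core genes of planar polarity, Celsr1 was higher with calcipotriol, where 1.07% of all genes tested were higher. Celsr1 is an atypical cadherin, related to the fly protein Flamingo, that links the polarity of neighboring epithelial cells. It had 5, 20, 8 and 0 counts under EtOH, then 76, 106, 134 and 193 counts under calcipotriol. Each calcipotriol-treated tumor was above the highest EtOH-treated tumor, and in EtOH replicate 4 the gene was at 0. The mean was 0.385 ± 0.416 CPM (SD, n = 4) under EtOH and 5.62 ± 2.21 CPM (SD, n = 4) with calcipotriol, a log2 fold change of 3.86 (standard error 0.83, Benjamini-Hochberg p of 0.0383 in edgeR's quasi-likelihood test). The adjusted p was 0.0664 from limma-voom and ranged from 1.22e-05 to 0.119 over the alternatives. With 1 tumor at a time left out, Celsr1 passed in 3 of 8 fits, those without EtOH replicate 2, EtOH replicate 4 or calcipotriol replicate 1. Its EtOH values were too low for the filter on low counts, so its calcipotriol values brought it into the test. Where at least 10 counts in every tumor were required, Celsr1 was not tested, and Axin2 and Sfrp1 were called. Celsr1 (ENSMUSG00000016028) is a reverse-strand gene of chromosome 15 (GRCm38 85898929 to 86033777). Per length it remained low, at 1.49 ± 0.64 TPM (SD, n = 4) with calcipotriol.

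Epithelial markers were given beside Celsr1 because the gene is known from epithelia. Krt14 was at 0.584, 0, 1.5 and 0.662 CPM with EtOH and at 1.59, 10.2, 46.3 and 43.4 CPM with calcipotriol. Trp63, the basal factor p63, was at 1.17, 1.17, 0.608 and 0.265 CPM and then at 3.5, 7.54, 4.23 and 3.86 CPM. Cldn3 was at 0.778, 0.243, 0.527 and 0.176 CPM and then at 7.95, 7.26, 7.26 and 4.03 CPM. These 3 genes are the ones that edgeR called higher in the luminal and basal lists, and limma-voom called neither Krt14 nor Trp63 higher. The groups of all 3 genes did not overlap. Of the 18 genes tested in both lists, Krt7 was also higher without overlap, Krt8, Krt18, Myh11 and Mylk were lower without overlap, and the other 10 overlapped, among them Epcam, Krt5, Krt19 and Cdh1. Of all genes tested, 6.32% were higher and 6.16% lower without overlap. The part of epithelial content in the Celsr1 values was not tested.

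Celsr2 had 3, 0, 0 and 12 counts under EtOH, then 14, 25, 15 and 11 counts under calcipotriol, and the groups overlapped. Celsr3 had 13 to 23 counts with EtOH and 4 to 31 counts with calcipotriol. The Vangl genes, which encode membrane partners on the opposite side of the cell from Fzd proteins, had the highest levels per length of the 5 genes. Vangl1 was at 23.6, 30.3, 25.8 and 16.9 CPM with EtOH and at 23.5, 19.7, 18.7 and 21.5 CPM with calcipotriol. Vangl2 was at 13.7, 13.5, 11.6 and 9.39 CPM with EtOH and at 14.0, 11.6, 13.0 and 13.7 CPM with calcipotriol. Both overlapped between the groups, with log2 fold changes of -0.21 and 0.12 (standard error 0.19 for each gene).

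Axin2, a scaffold of the complex that degrades β-catenin and itself transcribed in response to β-catenin, was higher with calcipotriol. It had 227, 297, 194 and 225 counts under EtOH, then 621, 463, 562 and 603 counts under calcipotriol. The lowest calcipotriol-treated tumor, replicate 5, was above the highest EtOH-treated tumor, replicate 2, and replicate 1 did not stand apart here. The mean was 10.8 ± 2.76 CPM (SD, n = 4) under EtOH and 24.6 ± 2.49 CPM (SD, n = 4) with calcipotriol, a log2 fold change of 1.19 (standard error 0.20, Benjamini-Hochberg p of 0.0167 in edgeR's quasi-likelihood test). The log2 fold change ranged from 1.06 to 1.36 and the adjusted p from 0.0131 to 0.0603 when each tumor was left out in turn, and Axin2 passed in 6 of the 8 fits. It was 0.0603 without calcipotriol replicate 6 and 0.0535 without replicate 7, in a range of 1.74e-05 to 0.0603 over all alternatives. Axin2 (ENSMUSG00000000142) is a forward-strand gene of chromosome 11 (GRCm38 108920349 to 108950783), and an overlapping antisense gene took 7 counts over all tumors.

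**Figure D2:**
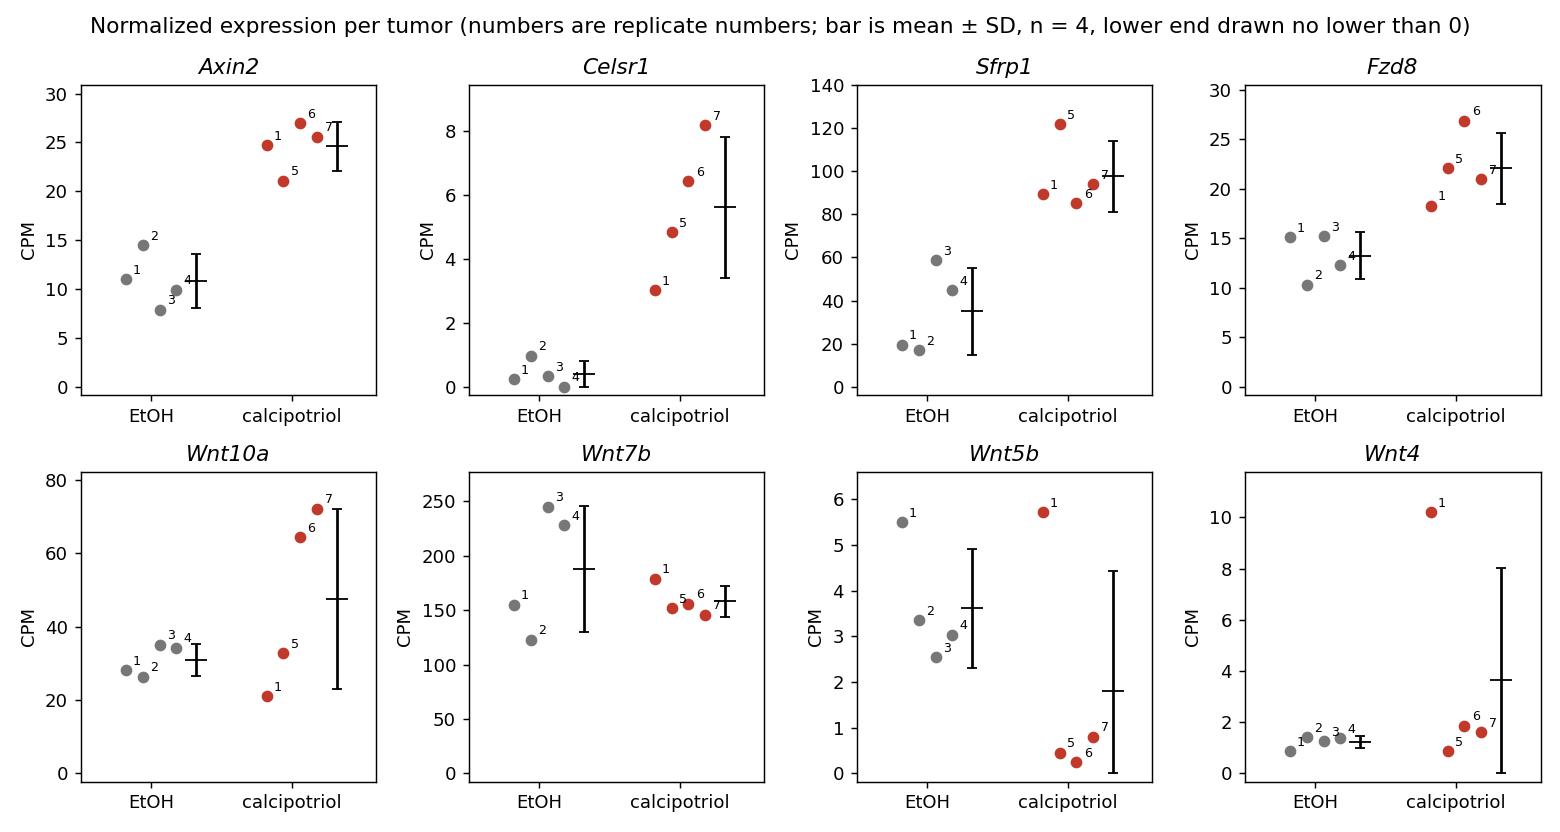
Normalized expression in CPM of 8 genes in each tumor, with replicate numbers beside the points and the mean ± SD of 4 tumors beside each group. All calcipotriol-treated tumors were above all EtOH-treated tumors in Axin2, Celsr1, Sfrp1 and Fzd8, and calcipotriol replicate 1 was far from its group in Wnt5b (5.72 CPM) and Wnt4 (10.2 CPM).

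The promoter of Axin2 is printed because Axin2 is the called gene of the 52 that is known as a target of β-catenin. Of the 52 genes, 34 had an entry in the table of RefSeq promoters (GRCm38.p6), and Celsr1, Sfrp1, Fzd8, Wnt7b, Wnt10a and Wnt5a had none. The 250 bases before the start of Axin2 are those of chr11:108920099-108920348 on the forward strand, printed 5′ to 3′ with each CG dinucleotide in capitals.
Axin2: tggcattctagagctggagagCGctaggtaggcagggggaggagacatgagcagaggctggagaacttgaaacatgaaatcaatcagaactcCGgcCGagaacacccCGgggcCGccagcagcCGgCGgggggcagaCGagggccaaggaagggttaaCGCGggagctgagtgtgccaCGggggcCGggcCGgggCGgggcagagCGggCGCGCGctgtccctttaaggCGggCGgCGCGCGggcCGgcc
This window holds 24 CG dinucleotides and 69.2% G and C, where the median over 32851 promoter windows of 250 bases is 6 CG and 52.4%. The letters CTTTGAT and CTTTGAA, which share all but the last letter and which TCF/LEF proteins can bind, were searched on both strands. Neither occurs in the window, while CTTTGAT is in 3.21% and CTTTGAA in 4.46% of all windows. This describes only these letters in these 250 bases.

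Other genes of the pathway were read from 6 lists with 117 genes, 102 of which were tested. Trabd2b was higher and Tcf7 and Prkcb were lower past both thresholds in edgeR, which is 3 of 102 genes where 2.02% of all genes passed, and the median log2 fold change was -0.06. Among 11 tested genes of Wnt secretion and extracellular control, Trabd2b, a membrane protease that cleaves Wnt proteins, was the gene past the thresholds. It had 22, 33, 11 and 14 counts under EtOH, then 127, 146, 93 and 142 counts under calcipotriol. All calcipotriol-treated tumors were above all EtOH-treated tumors, by a log2 fold change of 2.57 (standard error 0.46, Benjamini-Hochberg p of 0.0192 in edgeR's quasi-likelihood test). It did not pass without calcipotriol replicate 5, 6 or 7, at adjusted p of 0.0594, 0.0534 and 0.0646 from edgeR, and the range over all alternatives was 2.54e-06 to 0.0646. Apcdd1, a membrane protein that binds Wnt, was at 210, 214, 149 and 136 CPM with EtOH and at 87.8, 82.7, 147 and 139 CPM with calcipotriol. Calcipotriol replicates 1 and 5 were below all EtOH-treated tumors, and replicates 6 and 7 overlapped with EtOH replicates 3 and 4. For Apcdd1 the log2 fold change came to -0.63 (standard error 0.23, Benjamini-Hochberg p of 0.175 in edgeR's quasi-likelihood test). Wls, the carrier of Wnt proteins to the cell surface, was at 374 ± 83.6 CPM (SD, n = 4) under EtOH and 329 ± 37.6 CPM (SD, n = 4) under calcipotriol, and the groups overlapped.

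Among 34 tested genes of the cytoplasmic and nuclear relay, 1 was lower and 0 were higher in edgeR, DESeq2 and limma-voom alike, with 6 at an unadjusted p under 0.05, where 2.02% of all genes were called in edgeR and 18.4% had such a p. Tcf7, a TCF/LEF factor that is also abundant in T cells, had 1259, 1500, 1256 and 1223 counts under EtOH, then 586, 551, 724 and 836 counts under calcipotriol. The groups did not overlap. This gave a log2 fold change of -1.01 (standard error 0.18, Benjamini-Hochberg p of 0.0206 in edgeR's quasi-likelihood test), close to the fold change minimum. It was under that minimum without EtOH replicate 1 (-0.99), EtOH replicate 2 (-0.90), calcipotriol replicate 1 (-0.91) or calcipotriol replicate 5 (-0.94). The adjusted p from edgeR was then 0.0551, 0.0563, 0.0179 and 0.0631, in a range of 6.15e-05 to 0.0631 over the alternatives. The T and NK cell markers summed to 3.02, 2.14, 1.94 and 1.28 CPM with EtOH and to 16.0, 4.34, 3.12 and 2.63 CPM with calcipotriol, and their part in Tcf7 was not tested. An antisense gene that overlaps Tcf7 took 134 counts. Tle4, a corepressor of TCF factors, had 230, 197, 221 and 267 counts under EtOH, then 136, 125, 112 and 134 counts under calcipotriol. These did not overlap, but the log2 fold change of -0.90 (Benjamini-Hochberg p of 0.0471 in edgeR's quasi-likelihood test) was under the minimum. The adjusted p of Tle4 was 0.00157 from DESeq2, 0.0505 from limma-voom and 0.143 from edgeR without calcipotriol replicate 6. Dvl2, which carries the signal from Frizzled, was at 56.6, 55.1, 51.8 and 38.2 CPM with EtOH and at 35.6, 33.8, 36.6 and 36.4 CPM with calcipotriol. The groups did not overlap, with EtOH replicate 4 close to the calcipotriol-treated tumors, at a log2 fold change of -0.50 (standard error 0.14, Benjamini-Hochberg p of 0.0958 in edgeR's quasi-likelihood test). Acadvl, which overlaps Dvl2, took 12348 counts.

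Ctnnb1, which encodes β-catenin, was at 593 ± 55.3 CPM (SD, n = 4) and 586 ± 11 CPM (SD, n = 4) in the EtOH and calcipotriol groups.

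Of 17 tested genes in the list of β-catenin targets, 6 had a log2 fold change above 0 and 11 below, with a median of -0.20, and Tcf7 alone passed both thresholds in edgeR and limma-voom. DESeq2 called 3 lower, where it called 4.45% of all genes, and 6 had an unadjusted p under 0.05, where 18.4% of all genes did. Notum, an enzyme that removes the lipid of Wnt proteins, had 1571, 1358, 1265 and 1330 counts under EtOH, then 1961, 1706, 2236 and 2226 counts under calcipotriol, and the groups did not overlap in CPM. Its log2 fold change was 0.50 (Benjamini-Hochberg p of 0.127 in edgeR's quasi-likelihood test), and overlapping antisense genes took 721 and 23 counts. Nkd1, an inhibitor of Dvl, had 95, 65, 147 and 134 counts under EtOH, then 64, 4, 31 and 26 counts under calcipotriol. Bambi, a decoy receptor for TGF-β, had 75, 90, 118 and 148 counts and then 25, 24, 45 and 70 counts. In CPM every calcipotriol-treated tumor was below every EtOH-treated tumor in both genes, with log2 fold changes of -1.88 and -1.42 (Benjamini-Hochberg p of 0.138 and 0.118 in edgeR's quasi-likelihood test). Lgr5 had 2, 3, 35 and 6 counts under EtOH, then 26, 5, 17 and 18 counts under calcipotriol. Sp5 had 11, 0, 0 and 0 counts and then 19, 8, 5 and 11 counts. Rnf43 was at 0 under EtOH throughout and had 7, 14, 7 and 22 counts with calcipotriol. Of the 17 tested genes of this list, 13 overlapped between the groups, 1 (Notum) was higher without overlap and 3 (Nkd1, Bambi and Tcf7) were lower without overlap, against 6.32% and 6.16% of all genes tested.

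Among the receptors of R-spondins and their ligases, 0 of 4 tested genes passed in edgeR, DESeq2 or limma-voom, and 1 had an unadjusted p under 0.05, against 18.4% of all genes. Lgr4 had 121, 125, 88 and 127 counts under EtOH, then 200, 241, 129 and 186 counts under calcipotriol, a log2 fold change of 0.64 (Benjamini-Hochberg p of 0.25 in edgeR's quasi-likelihood test). The groups of Lgr4 did not overlap in CPM. Lgr6, the most abundant of the list, was at 61.9, 56, 84.3 and 71.8 CPM with EtOH and at 103, 64.5, 78.8 and 94.2 CPM with calcipotriol. Znrf3 was at 30.1, 36, 17.7 and 19.5 CPM with EtOH and at 13.7, 19.6, 18.8 and 23.8 CPM with calcipotriol. Both overlapped between the groups, at log2 fold changes of 0.31 and -0.44.

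Among 26 tested partners of planar polarity, 0 passed in edgeR and in limma-voom and 1 in DESeq2, which called 4.45% of all genes, with 6 at an unadjusted p under 0.05, where 18.4% of all genes had such a p. Of the 26 genes, 14 had a log2 fold change above 0 and 12 below, with a median of 0.06. The groups overlapped in 21 genes, 2 (Prickle3 and Fjx1) were higher without overlap and 3 (Dchs1, Rac1 and Daam2) were lower without overlap, against 6.32% and 6.16% of all genes tested. Dchs1, a cadherin that binds Fat4 across cell borders, was the gene that DESeq2 called, with 362, 161, 365 and 204 counts under EtOH, then 181, 34, 98 and 87 counts under calcipotriol. In CPM the groups did not overlap, and the log2 fold change was -1.52 (standard error 0.44, Benjamini-Hochberg p of 0.0962 in edgeR's quasi-likelihood test). Without calcipotriol replicate 1 it was -1.89 and passed, with an adjusted p of 0.0309 from edgeR in a range of 0.0131 to 0.226 over the alternatives. Rac1, a small GTPase that carries polarity signals to the cytoskeleton, was at 448, 539, 533 and 490 CPM with EtOH and at 424, 358, 327 and 354 CPM with calcipotriol. Rhoa, another such GTPase, was at 492, 640, 635 and 641 CPM with EtOH and at 510, 469, 412 and 435 CPM with calcipotriol. The groups did not overlap in Rac1 and overlapped in Rhoa through EtOH replicate 1, at log2 fold changes of -0.46 and -0.40 (Benjamini-Hochberg p of 0.0922 and 0.156 in edgeR's quasi-likelihood test). Protein-coding genes overlap both of them, Daglb with 1990 counts over Rac1 and Tcta with 2346 counts over Rhoa. An antisense gene, Gm37401, also overlaps Rhoa and took 4060 counts.

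In the calcium arm of Wnt signaling, 1 of 17 tested genes was lower and 0 were higher by each of edgeR, DESeq2 and limma-voom, and 6 had an unadjusted p under 0.05, where 2.02% of all genes were called in edgeR and 18.4% had such a p. Prkcb, a protein kinase C of leukocytes and other cells, had 840, 1096, 1083 and 957 counts under EtOH, then 453, 589, 434 and 508 counts under calcipotriol. The groups did not overlap, and Prkcb fell by a log2 fold change of 1.05 (standard error 0.16, Benjamini-Hochberg p of 0.0107 in edgeR's quasi-likelihood test). It was -0.96, under the minimum, without EtOH replicate 2 and also without calcipotriol replicate 1. Macrophage markers were lower in the same tumors (above), and their part in Prkcb was not tested. Plcb4, a phospholipase of this arm, was at 10.8, 15.9, 11.3 and 8.78 CPM with EtOH and at 6.48, 5.44, 4.95 and 6.49 CPM with calcipotriol. Plcb3, another phospholipase, was at 178, 160, 177 and 159 CPM with EtOH and at 126, 105, 129 and 127 CPM with calcipotriol. Their log2 fold changes were -1 and -0.47 (Benjamini-Hochberg p of 0.057 and 0.0641 in edgeR's quasi-likelihood test), and their groups did not overlap. Without calcipotriol replicate 1 Plcb4 passed at -1.06, with an adjusted p of 0.0424 from edgeR in a range of 0.00519 to 0.168 over the alternatives. Ppp1r14b, which overlaps Plcb3, took 75124 counts.

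**Figure D3:**
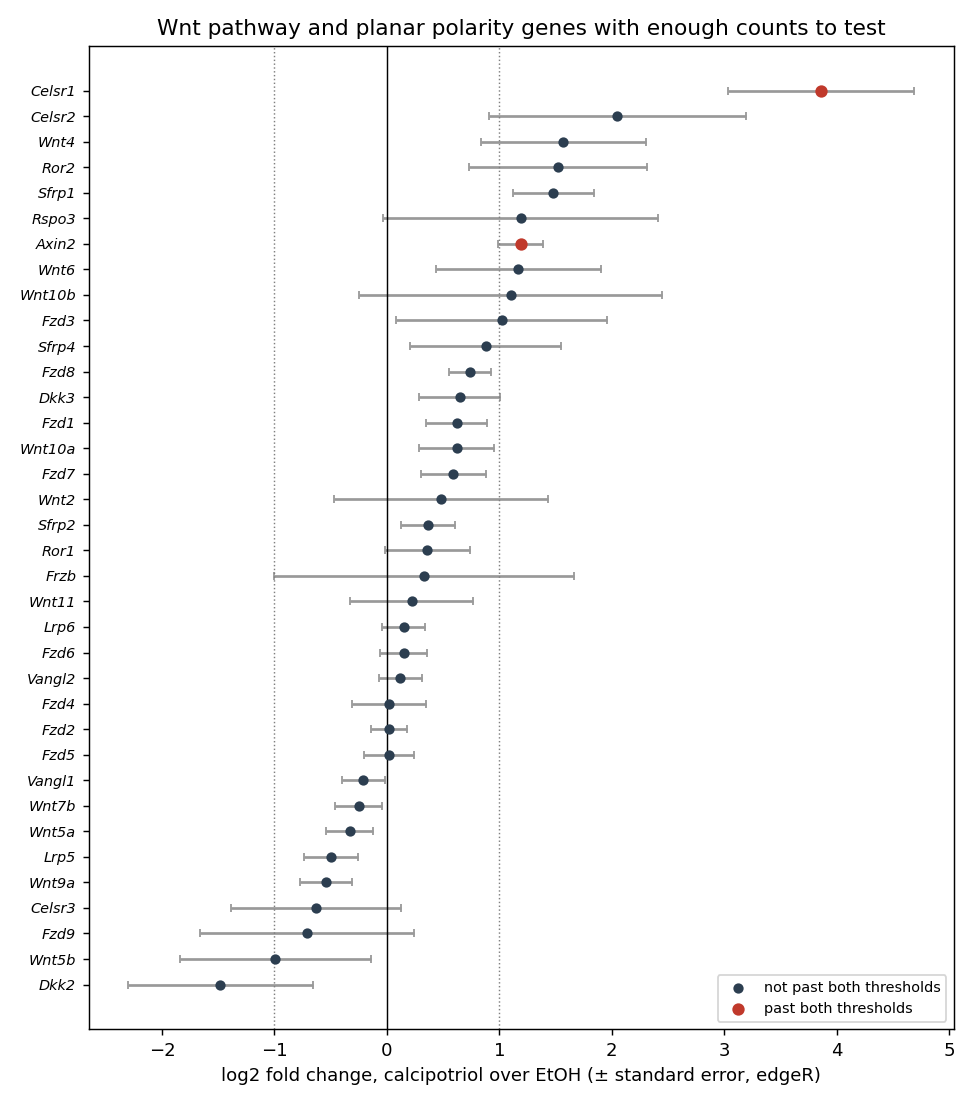
Log2 fold change (calcipotriol over EtOH) of the 36 tested genes, in order of size, with dotted lines at the fold change minimum. Bars are the standard error derived from the F statistic of edgeR's test. Axin2 (1.19) and Celsr1 (3.86), in red, passed both thresholds, and Dkk2 (-1.48) and Wnt5b (-0.99) lay at the other end with wide errors.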

How the data were processed

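The authors deposited expected counts per gene, estimated numbers of reads that need not be whole, for 8 tumors and without scaling between them. The submitters' processing notes name STAR 2.5.3, RSEM 1.3.1, DESeq2 1.24.0 and GRCm38. Libraries were made with a NEBNext Ultra RNA kit. The paper and the labels name different sequencers. Of 55414 identifiers, 52081 matched GENCODE M21. The other 3333, some from a later annotation, took 0.313% to 1.99% of counts and were kept in the tests.

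Counts were rounded, since 4.2% to 6.22% of values per tumor were not whole; tests had been planned for whole counts. Genes were filtered by filterByExpr and compared in R 4.3.3 with edgeR 4.0.16 (TMM, glmQLFit, glmQLFTest, Benjamini-Hochberg adjustment over all tested genes), without covariates. This test gives no standard error. Those printed are the absolute log2 fold change divided by the square root of the F statistic. TPM used the union exon length of identifiers in M21. Alternatives were DESeq2 1.42.0, its size factors, limma-voom (3.58.1), other filters, no fold change minimum, transcript length and each tumor left out. The scripts were tested on simulated data. The members and lists were chosen with earlier results of these data known. Values per tumor are given for genes past both thresholds, with an unadjusted p under 0.05 or with groups that do not overlap at a mean of at least 20 counts, for the 2 highest genes of each role by TPM, and for called genes, the 3 smallest p and 6 readout genes of the pathway lists. Other genes were named after their values were seen. The listed gene Tiki1 and 2 markers, Krt85 and Ahsp, had no match.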

Additional observations from a re-analysis of the deposited data

Results flagged for a closer look

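In 3 of 60 groups of 4 tumors, 1 tumor lay far from the others on the CPM scale by Dixon's test at the 5% level, and chance gives about 3. All were calcipotriol replicate 1. Wnt4 was at 10.2 CPM there and at 0.868 to 1.87 CPM in the rest of its group, Wnt5b at 5.72 CPM and 0.24 to 0.805 CPM, and Rspo3 at 5.84 CPM and 0.254 to 0.777 CPM. On the log2 scale the number was 0 of 60. The scale was changed from log2 to CPM after the values were seen, and the part of the lymphocyte markers of this tumor was not tested.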

How the results depend on the processing

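The number of all genes past both thresholds was 292 in edgeR, 458 without a filter on low counts and 644 with DESeq2, and it ranged from 110 to 642 when each tumor was left out in turn, the highest without calcipotriol replicate 1 and the lowest without calcipotriol replicate 6. Among the Wnt and polarity genes, the number higher ranged from 0 to 3 and the number lower from 0 to 1 over the same fits. Among the pathway lists the number was 3 in edgeR, 6 with DESeq2 and 1 to 3 with each tumor left out. The cause was not tested. The median log2 fold change of the tested genes kept its sign in every alternative and ranged from 0.15 to 0.51. Of the other values, 408 were classed as the same, 11 newly passed both thresholds together and 17 no longer passed. The 408 hold levels in TPM, to which no threshold applies, and log2 fold changes whose call by both thresholds together did not change. Some of these crossed the adjusted p threshold alone. Tle4 went from 0.0471 in edgeR to 0.0505 in limma-voom, and Fzd8 from 0.0682 in edgeR to 0.012 with DESeq2. The level of Wnt10a with EtOH was 26.1 TPM with the length of the longest transcript. Rspo3 reversed, from 1.19 to -0.78 without calcipotriol replicate 1, and was 1.93 without EtOH replicate 1. Outside the genes named by rule, Frzb and Wnt11 reversed without calcipotriol replicate 1 (-1.49 and -0.32), Fzd9 reversed and Wnt2 was near 0 in limma-voom, and Fzd2, Fzd4 and Fzd5, near 0, changed sign. Celsr1 and other genes with low counts had no value under the filter of 10 counts in every tumor. Low counts limit Celsr1, Celsr2, Rspo3 and Rnf43, where a few reads decide a fold change. No paired analysis was possible because the groups share 1 replicate number only.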
